A study of Homo sapiens with 6 samples.

Results

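The hypoxia-inducible factor (HIF) pathway was examined in RNA-seq libraries of T98G, an established glioblastoma cell line, after knockout of CBX8 with or without its re-expression. The genes were a set of 36 symbols chosen by name from the pathway, with earlier results of these data known. All 36 were present among the 57133 symbols in the count table. They comprise 8 regulators (the HIF subunits and the enzymes and ubiquitin ligase that control them) and 28 HIF targets that lie outside glycolysis. Both conditions descend from the same CBX8 knockout line, made with a CRISPR guide in a transfected and puromycin-selected population, and the methods do not say whether it was grown from a single clone. CBX8 KO cells carried the empty doxycycline-inducible lentiviral vector and WT CBX8 re-expression cells carried the same vector with V5-tagged WT CBX8, each as 3 libraries. Doxycycline was given to all 6 at 1 μg/ml for 72 h, and the labels name no hypoxic treatment. In the labels the genotype of the re-expression libraries is wild type, whereas their titles and the methods describe CBX8 put back into the KO line, and neither group is an unedited T98G culture. The groups are also separately transduced and selected stable lines, so CBX8 and line cannot be told apart.

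CBX8, a chromodomain subunit of the Polycomb repressive complex PRC1, was counted 83 to 104 times per library in CBX8 KO and 27791 to 31408 times upon re-expression (log2 fold change 8.22, SE 0.08), the direction that the labels give. The reads left in CBX8 KO do not tell whether the edited gene still makes protein. Library totals lay between 7950190 and 8659796 counts. Whether replicates came from separate cultures is not stated, so each SD and p-value describes spread between libraries that may be technical. Of 8 glial and glioma markers, VIM, CD44 and TNC were well detected, GFAP and OLIG2 stayed below 5 CPM (counts scaled by the library's TMM-adjusted size), NES was near 0, and S100B and SOX2 had 0 counts. Of these 8, 5 were tested, and TNC was called higher and CD44 lower upon re-expression, beside 12.9% of all tested genes called in either direction. VIM, GFAP and OLIG2 were not called, with log2 fold changes of 0.05, 0.68 and 0.85 (edgeR adjusted p = 0.61, 0.13 and 0.056). The summed level of the 8 was 5560 to 5870 CPM in CBX8 KO and 5290 to 5710 CPM upon re-expression. Most of that sum was VIM and CD44 (means of 2730 and 2895 CPM in CBX8 KO), so it says little about the others. The 10 markers of other cell types had at most 14 counts in any library, ALB had 0, and their sum was 1.26 to 2.14 CPM in CBX8 KO and 1.37 to 2.59 CPM upon re-expression.

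In cells with oxygen, prolyl hydroxylases of the EGLN family mark the HIF alpha subunits for capture by VHL, the substrate receptor of a ubiquitin ligase, and the proteins are destroyed. When oxygen is scarce, HIF1A and EPAS1 (HIF-2 alpha) escape this mark, pair with ARNT and bind a short core sequence in the promoters and enhancers of genes for acid handling, mitochondrial turnover, matrix building and blood vessel growth. Much of this control acts on protein stability, which RNA-seq does not measure, and several of the target genes also answer to other stress pathways.

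The core that HIF binds reads ACGTG or GCGTG, and stretches near the gene starts are shown for the members whose RNA differed most between the conditions and which are in the RefSeq promoter table (build GRCh38.p14). The core was searched on both strands (CACGT and CACGC on the other strand) from 250 bases before to 50 bases after the start, and a CACGTG, which holds ACGTG on each strand, was counted as 1 place. The table holds 30 of the 36 members, and VHL, VEGFA, NDRG1, BNIP3L, ANKZF1 and STC1 are not among them. Capitals mark the core, each stretch is written 5′ to 3′ on the strand of the gene, and bases of annotated exons (GENCODE release 44) are left out, except that the CA9 site lies in an exon of ARHGEF39 on the opposite strand. CA9 (chr9:35673898-35673927, plus strand) has a single core that begins 18 bases before its start. BNIP3 (chr10:131981968-131982173, minus strand) has 5, DDIT4 (chr10:72273705-72273918, plus strand) has 3 in the stretch shown of 4 in its window, AK4 (chr1:65147302-65147548, plus strand) has 2 and EGLN3 (chr14:33951082-33951324, minus strand) has 0. The places in BNIP3 are evenly spaced for the most part and begin at -143, -134, -125, -116 and -104 relative to the start. For each gene 1 RefSeq start was used. The EGLN3 stretch lies inside the gene as GENCODE annotates it (chr14:33924227-34462774), and other starts were not searched.
CA9: tcgtttccaatgCACGTacagcccgtacac
DDIT4: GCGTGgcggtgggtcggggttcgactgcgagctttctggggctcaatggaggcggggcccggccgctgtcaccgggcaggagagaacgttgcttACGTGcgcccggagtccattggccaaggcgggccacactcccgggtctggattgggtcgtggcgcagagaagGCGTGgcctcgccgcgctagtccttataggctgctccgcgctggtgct
BNIP3: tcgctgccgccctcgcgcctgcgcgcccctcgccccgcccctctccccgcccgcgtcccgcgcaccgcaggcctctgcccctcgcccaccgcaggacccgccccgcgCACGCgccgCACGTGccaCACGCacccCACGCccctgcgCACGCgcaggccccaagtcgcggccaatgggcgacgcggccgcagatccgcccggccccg
AK4: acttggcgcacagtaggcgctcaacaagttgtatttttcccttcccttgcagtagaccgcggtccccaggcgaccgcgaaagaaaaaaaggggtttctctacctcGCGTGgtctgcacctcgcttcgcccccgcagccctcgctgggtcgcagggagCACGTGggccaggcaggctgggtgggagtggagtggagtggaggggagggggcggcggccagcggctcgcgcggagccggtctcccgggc
EGLN3: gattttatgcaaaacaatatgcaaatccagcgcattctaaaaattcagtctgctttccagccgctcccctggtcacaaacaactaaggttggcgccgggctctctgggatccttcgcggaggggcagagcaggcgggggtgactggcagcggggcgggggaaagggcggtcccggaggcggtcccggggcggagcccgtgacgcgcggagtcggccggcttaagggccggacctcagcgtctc

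At least 1 core was found in 24 of the 30 member windows (80.0%), against 63.5% of the 9726 windows of tested genes and 48.4% of all 27305 windows in the table. The ACGTG form was in 17 of 30 (56.7%), against 26.9% of windows of tested genes. Among the members called lower below, 15 of 17 windows held a core and 11 held the ACGTG form. Among the other 13, the numbers were 9 and 6. Of the members called higher, STC2 had 3 places and P4HA2 had 0. The P4HA2 window lies inside its annotated gene (chr5:132190147-132295315), so the absence does not cover other starts of that gene. Matches to so short a sequence are a description of the window and do not show binding.

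**Figure D1:**
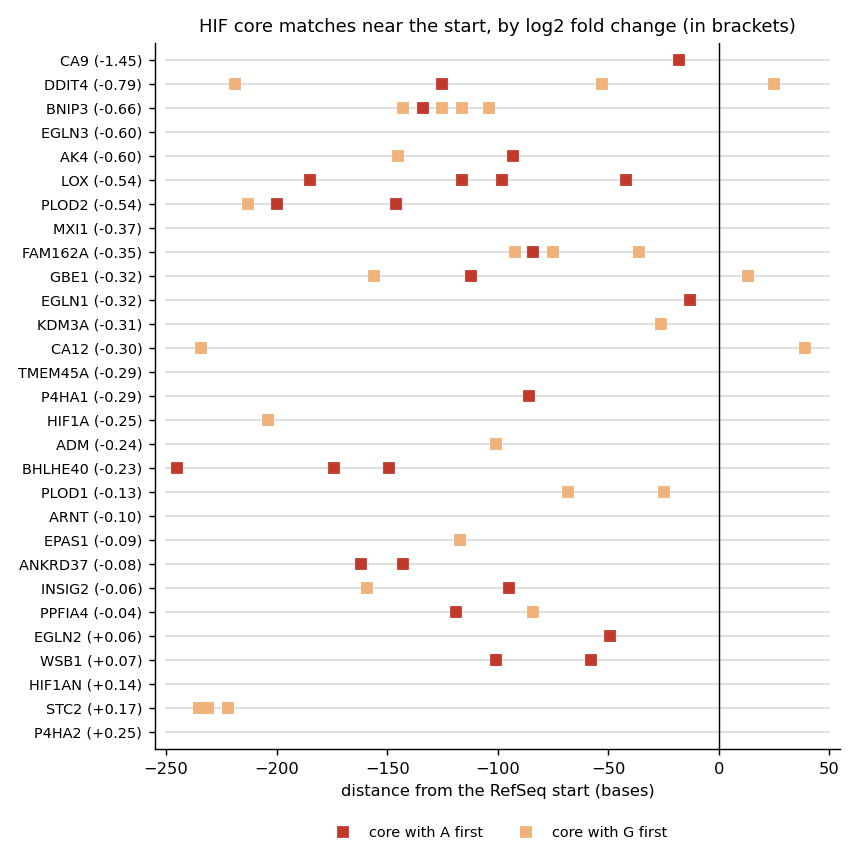
Places of the HIF core from 250 bases before to 50 bases after the RefSeq start (x axis, bases) for the 29 tested members in the promoter table, ordered by log2 fold change (in brackets, WT CBX8 re-expression against CBX8 KO). Red squares mark the core that starts with A and orange squares the core that starts with G. BNIP3 holds 5 places and EGLN3, MXI1, TMEM45A, ARNT, HIF1AN and P4HA2 hold none. Of those without a core, the windows of EGLN3, HIF1AN and P4HA2 lie inside their annotated genes, and other starts were not searched.

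To ask whether the pathway differed between the conditions, the re-expression libraries were set against the KO libraries across all 14461 genes that passed edgeR's expression filter, by its quasi-likelihood test with Benjamini-Hochberg adjustment at FDR < 0.05. Upon re-expression, 21 of the 35 members tested were lower and 2 were higher, while 12 did not pass. Of all tested genes, 6.63% were called lower and 6.23% higher (12.9% in either direction). Because the set was chosen with earlier results of these data known, its counts beside these shares are a description and not an independent test. The split over all genes moved with the scaling, from 901 higher and 959 lower to 1400 higher and 592 lower when library size alone was used, and the members then split into 3 higher and 16 lower. Deeply counted genes are called more easily. Among the 9768 genes with a mean of at least 10 CPM, 9.07% were lower and 6.91% higher, against 20 members lower and 2 higher of the 31 at that level. This floor does not match those genes to the members in level, so it allows for depth only in part. The median log2 fold change was -0.29 over the 35 members and 0.0049 over all tested genes. The libraries of the conditions did not overlap for 27 members, 25 of them lower, where 28.9% of all tested genes showed no overlap. ANGPTL4, an inhibitor of lipoprotein lipase, had 0 to 3 counts in each library and was not tested.

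**Figure D2:**
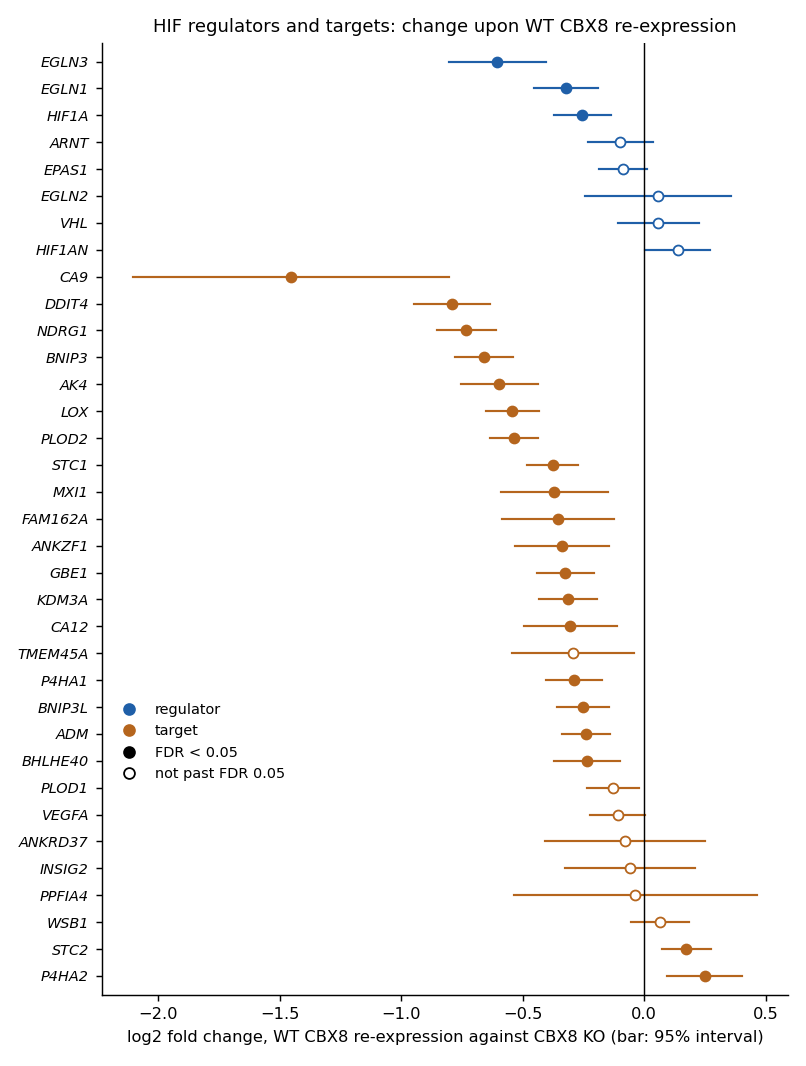
Log2 fold change (x axis, WT CBX8 re-expression against CBX8 KO) of the 8 regulators and 27 tested targets, with 95% intervals from edgeR's quasi-likelihood fit. Filled points passed FDR < 0.05: 21 lie left of 0, led by CA9 at -1.45, and 2, P4HA2 and STC2, lie right of it.

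Among the alpha subunits, HIF1A (chr14:61695513-61748259, plus strand, hg38) was lower and EPAS1 did not pass the test. HIF1A measured 477, 414 and 396 CPM in CBX8 KO replicates 1 to 3 and 352, 351 and 376 CPM in the re-expression libraries. All 3 re-expression libraries lay below all 3 KO libraries, and KO replicate 1 was the highest. HIF1A differed by -0.25 on the log2 scale (SE 0.06, edgeR adjusted p = 0.0033), and without CBX8 KO replicate 1 it was -0.17 (adjusted p = 0.037). EPAS1 measured 519 ± 7.33 CPM in KO libraries against 488 ± 19.0 CPM (SD, n = 3 each). Its 3 re-expression libraries also lay below its 3 KO libraries. The EPAS1 difference was -0.09 on the log2 scale, with a 95% interval from -0.19 to 0.01. On a scale per kilobase of the canonical transcript, the levels of the alpha subunits in CBX8 KO were close, at 109 CPM per kilobase for HIF1A and 101 for EPAS1, and their partner ARNT stood at 12.8. ARNT had a log2 fold change of -0.10 (edgeR adjusted p = 0.38). HIF1A-AS1, an antisense gene that overlaps HIF1A, held 3.15% as many counts and had a log2 fold change of -0.20 (edgeR adjusted p = 0.36). The counting program's strand setting is not given in the sources used here.

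Of the oxygen-sensing hydroxylases, EGLN1 and EGLN3, which are themselves known HIF targets, were lower, and EGLN2 was not called. EGLN3 measured 33.7, 39.1 and 31.6 CPM in the KO libraries and 23.0, 21.5 and 24.3 CPM in the re-expression libraries. The groups were well apart, with the lowest KO library above the highest re-expression library. It fell by 0.60 on the log2 scale (SE 0.10, edgeR adjusted p = 8.3e-05), the largest of the 8 regulators. EGLN1, the main hydroxylase of HIF alpha in most cells, measured 81.7, 84.2 and 78.8 CPM in the KO libraries and 70.1, 59.6 and 66.3 CPM in the re-expression libraries. EGLN1 fell by 0.32 on the log2 scale (SE 0.06, edgeR adjusted p = 0.00092). EGLN2 measured 8.68 ± 1.25 and 9.01 ± 0.50 CPM (SD, n = 3 each), with a 95% interval of its log2 fold change from -0.24 to 0.36. Per kilobase, EGLN1 stood highest in CBX8 KO at 18.8 CPM, then EGLN3 at 12.9 and EGLN2 at 4.13. HIF1AN, the asparaginyl hydroxylase that blocks HIF co-activator binding, had a log2 fold change of 0.14 (unadjusted p = 0.042, edgeR adjusted p = 0.18), and it passed the threshold only when library size alone was used for scaling (0.19, adjusted p = 0.048). NDUFB8, which overlaps HIF1AN on the opposite strand, had 20.4% as many counts and a log2 fold change of 0.05 (edgeR adjusted p = 0.83). VHL had a log2 fold change of 0.06 (edgeR adjusted p = 0.71), with 36.7 ± 2.33 and 38.3 ± 0.033 CPM (SD, n = 3 each). In all, 3 of the 8 regulators were lower and 0 higher, beside 6.63% lower and 6.23% higher over all tested genes. By edgeR's unadjusted p, 4 of the 8 were under 0.05 in either direction, beside 3662 of all 14461 tested genes. limma voom and DESeq2 also called 3.

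Of the 28 targets, 7 were not called and 1 was not tested. The others were 18 lower and 2 higher, beside 6.63% lower and 6.23% higher over all tested genes. The largest fall was that of CA9 (chr9:35673928-35681159, plus strand), a cell surface carbonic anhydrase used as a tissue marker of hypoxia. It was near the limit of detection, with 17, 39 and 35 counts in CBX8 KO and 13, 10 and 12 upon re-expression, or 2.15, 4.63 and 4.48 CPM against 1.53, 1.14 and 1.43 CPM. CBX8 KO replicate 1 lay closer to the re-expression libraries than to the other KO libraries, though above them. CA9 fell by 1.45 on the log2 scale (SE 0.32, edgeR adjusted p = 0.0023), a 2.74-fold lower level and the 12th lowest value of all tested genes. It stayed between -1.73 and -1.27 over the 15 alternative fits. ARHGEF39, which overlaps CA9 on the opposite strand, had a median of 221 counts per library, 1070% of those of CA9, and a log2 fold change of 0.05 (edgeR adjusted p = 0.77). Its part in the CA9 value was not tested. CA12, a related carbonic anhydrase with a higher level, measured 26.3, 27.6 and 26.9 CPM in CBX8 KO libraries and 21.5, 21.1 and 22.7 CPM after re-expression. The groups did not overlap, and CA12 fell by 0.30 on the log2 scale (edgeR adjusted p = 0.030).

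Targets with roles in mitochondria or energy stores are given next, grouped by their known roles after the values were seen. BNIP3 (chr10:131967684-131981967, minus strand), a receptor for the removal of mitochondria by autophagy, measured 201, 233 and 219 CPM in the KO libraries and 147, 137 and 130 CPM in the re-expression libraries. BNIP3 fell by 0.66 on the log2 scale (SE 0.06, edgeR adjusted p = 5.9e-09). The related receptor BNIP3L stood at 117, 118 and 119 CPM with the empty vector and at 98.4, 101 and 98.1 CPM with CBX8, and fell by 0.25 (SE 0.05, edgeR adjusted p = 0.0013). PNMA2, which overlaps BNIP3L on the opposite strand, had 10.2% as many counts and a log2 fold change of 0.31 (edgeR adjusted p = 0.14). AK4, a mitochondrial adenylate kinase, measured 57.0, 55.2 and 49.1 CPM in the KO libraries and 34.7, 35.1 and 37.1 CPM in the re-expression libraries, and fell by 0.60 (SE 0.08, edgeR adjusted p = 4.0e-06). For BNIP3 and AK4 every KO library was above every re-expression library. Their pseudogenes in the table held few reads, at most 0.557% of the BNIP3 counts for any pseudogene of BNIP3 and 7.04% of the AK4 counts for AK4P1. FAM162A, a mitochondrial protein linked to hypoxic cell death, ranged from 17.2 to 22.5 CPM in CBX8 KO and from 15.0 to 16.0 CPM upon re-expression, and fell by 0.35 (edgeR adjusted p = 0.036), a call that was lost in 8 of the 15 alternative fits. WDR5B, on the opposite strand, had 59.0% as many counts and a log2 fold change of 0.0090. GBE1, the glycogen branching enzyme, ranged from 99.3 to 113 CPM in CBX8 KO and from 82.6 to 87.6 CPM upon re-expression, and fell by 0.32 (edgeR adjusted p = 0.00029).

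Of the targets linked to growth control and transcription, DDIT4 and NDRG1 had the largest falls. DDIT4 (REDD1, chr10:72273919-72276036, plus strand), an inhibitor of the growth kinase complex mTORC1 that is also induced by other stresses, measured 73.3, 82.3 and 82.4 CPM in the KO libraries and 52.2, 44.9 and 40.5 CPM in the re-expression libraries. DDIT4 fell by 0.79 on the log2 scale (SE 0.08, edgeR adjusted p = 2.8e-08), a 1.73-fold lower level. NDRG1, a stress-responsive gene linked to growth arrest and differentiation, measured 491, 502 and 444 CPM in the KO libraries and 319, 267 and 280.2 CPM in the re-expression libraries. NDRG1 fell by 0.73 (SE 0.06, edgeR adjusted p = 1.5e-09), the smallest adjusted p among the members. For both genes the highest re-expression library lay below the lowest KO library. MXI1, an antagonist of MYC, ranged from 18.4 to 21.5 CPM in CBX8 KO and from 15.1 to 16.8 CPM upon re-expression, and fell by 0.37 (edgeR adjusted p = 0.020). The transcriptional repressor BHLHE40 ranged from 60.7 to 66.9 CPM and from 52.9 to 57.9 CPM, and fell by 0.23 (edgeR adjusted p = 0.017). Its antisense gene BHLHE40-AS1 held 3.99% as many counts and fell by 0.90 (edgeR adjusted p = 0.037). KDM3A, a histone demethylase induced by HIF, stood at 88.0, 91.2 and 93.6 CPM in the KO libraries and at 71.1, 71.1 and 77.3 CPM in the re-expression libraries, and fell by 0.31 (SE 0.06, edgeR adjusted p = 0.00043). ANKZF1, a factor of ribosome quality control, measured 34.2 ± 2.06 CPM in CBX8 KO (SD, n = 3), lay between 25.2 and 30.2 CPM, below every KO library, after re-expression, and fell by 0.34 (edgeR adjusted p = 0.016). GLB1L, which overlaps ANKZF1 on the opposite strand, had 35.1% as many counts and a log2 fold change of 0.12 (edgeR adjusted p = 0.65).

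**Figure D3:**
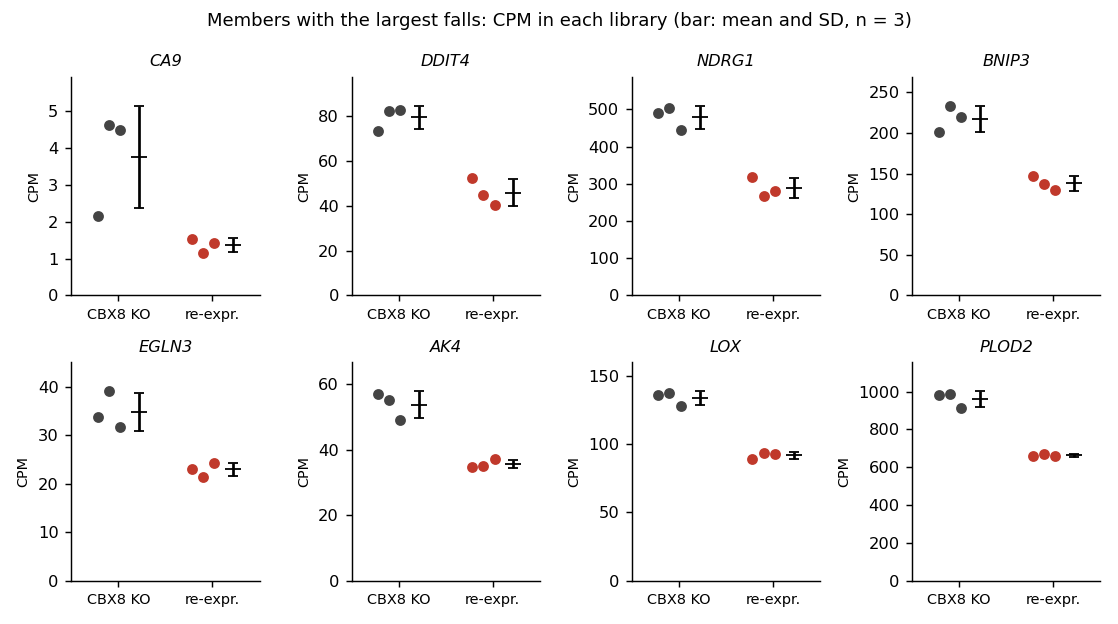
CPM (y axis, from 0) of the 8 members with falls of at least 0.5 on the log2 scale, in each CBX8 KO library (dark) and each WT CBX8 re-expression library (red), with mean and SD (n = 3). In every panel the 3 re-expression libraries lie below the 3 KO libraries, and only CA9 has a KO library close to them.

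Enzymes that build collagen did not move as a block. PLOD2, the lysyl hydroxylase that shapes collagen cross-links, was the most abundant member per kilobase in CBX8 KO, at 256 CPM per kilobase. It measured 982, 989 and 911 CPM in the KO libraries and 659.6, 669 and 659.2 CPM in the re-expression libraries, and fell by 0.54 (SE 0.05, edgeR adjusted p = 1.1e-08). LOX, the secreted oxidase that cross-links collagen and elastin, measured 135, 137 and 128 CPM in the KO libraries and 88.9, 93.2 and 93.0 CPM in the re-expression libraries, and also fell by 0.54 (SE 0.05, edgeR adjusted p = 4.4e-08). SRFBP1, which overlaps LOX on the opposite strand with 40.9% as many counts, had a log2 fold change of -0.27 (edgeR adjusted p = 0.015), and its part in the LOX value was not tested. P4HA1, a catalytic subunit of the collagen prolyl hydroxylase, was lower, with 112, 107 and 103 CPM in the KO libraries and 91.4, 87.4 and 85.5 CPM in the re-expression libraries (log2 fold change -0.29, edgeR adjusted p = 0.00073). P4HA2, the alternative subunit of the same enzyme, was higher, with 44.9, 56.3 and 47.9 CPM in the KO libraries and 60.2, 59.3 and 58.1 CPM in the re-expression libraries (log2 fold change 0.25, edgeR adjusted p = 0.026). The P4HA2 groups nearly touched, with KO replicate 2 at 56.3 CPM and re-expression replicate 3 at 58.1 CPM. The P4HA2 call was lost in 5 of the 15 alternative fits. P4HA2-AS1, on the opposite strand, had 15.4% as many counts as P4HA2 and a log2 fold change of -0.07 (edgeR adjusted p = 0.82). PLOD1, a further lysyl hydroxylase, had a log2 fold change of -0.13 (edgeR adjusted p = 0.11).

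Secreted factors also differed in direction. STC1, a stanniocalcin, measured 146, 149 and 143 CPM in the KO libraries and 113, 115 and 110.4 CPM in the re-expression libraries, and fell by 0.38 (SE 0.05, edgeR adjusted p = 7.1e-06). STC2, its paralog, measured 335, 336 and 357 CPM in the KO libraries and 371, 397 and 391 CPM in the re-expression libraries. STC2 rose by 0.17 (SE 0.05, edgeR adjusted p = 0.017), a call lost in 4 of the 15 alternative fits. ADM, the precursor of the vasodilator adrenomedullin, ranged from 173 to 180.2 CPM in CBX8 KO and from 149 to 152 CPM upon re-expression, and fell by 0.24 (SE 0.05, edgeR adjusted p = 0.0012). VEGFA, the angiogenic growth factor that is the best known HIF target, did not pass, with 97.8, 103 and 103 CPM in the KO libraries and 93.4, 91.2 and 97.0 CPM in the re-expression libraries. The 3 re-expression libraries lay below the KO libraries by a small margin, and the log2 fold change was -0.11 with a 95% interval from -0.22 to 0.0028 (edgeR adjusted p = 0.21). The remaining targets that did not pass were TMEM45A (-0.29), ANKRD37 (-0.08), INSIG2, which restrains sterol synthesis (-0.06), PPFIA4, a liprin (-0.04), and WSB1, a ubiquitin ligase adaptor (0.07), with edgeR adjusted p-values between 0.12 and 0.95. All of these but WSB1 had low levels, and the 95% intervals of their log2 fold changes were wide. TMEM45A stood at 13.5 CPM in CBX8 KO, with an interval from -0.55 to -0.04, and INSIG2 at 12.6 CPM, with an interval from -0.32 to 0.21. ANKRD37 stood at 7.41 CPM, with an interval from -0.41 to 0.25, and PPFIA4 at 3.62 CPM, with an interval from -0.54 to 0.47. UFSP2, which overlaps ANKRD37 on the opposite strand, had 337% as many counts as ANKRD37 and a log2 fold change of -0.10. Its part in the ANKRD37 value was not tested.

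Related members were set against each other within each library, since a ratio of counts from 1 library does not depend on scaling. The pairs were chosen with the values known, and the member with the lower log2 fold change was put above the line. Because that choice sets the direction of the ratios, they are given as a description of 8 pairs, with no test. The log2 ratio of STC1 to STC2 was -1.23 ± 0.08 in CBX8 KO and -1.78 ± 0.05 upon re-expression (SD, n = 3 each), a difference of -0.55. The log2 ratio of P4HA1 to P4HA2 was 1.12 ± 0.20 and 0.57 ± 0.03 (SD, n = 3 each), also a difference of -0.55. BNIP3 against BNIP3L and PLOD2 against PLOD1 differed by -0.41 and -0.40, EGLN3 against EGLN2 by -0.66 and EGLN3 against EGLN1 by -0.27. CA9 against CA12 differed by -1.08 with a wide spread in CBX8 KO (SD 0.60), and HIF1A against EPAS1 by -0.16. For HIF1A against EPAS1 the groups nearly touched, at -0.37 to -0.13 in CBX8 KO and -0.51 to -0.41 upon re-expression. The spread of EGLN3 against EGLN2 in CBX8 KO was also wide (SD 0.35).

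**Figure D4:**
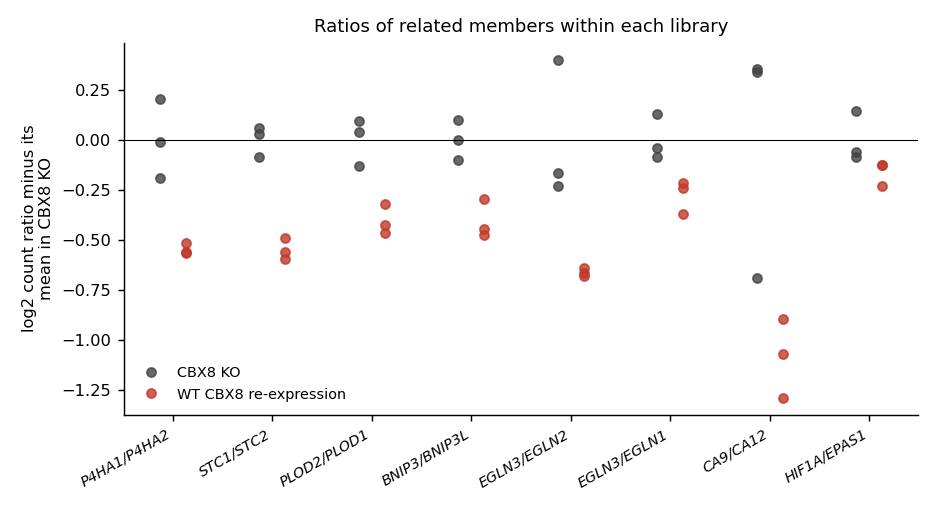
Log2 ratio of the counts of 8 pairs of related members in each library (points), given as the difference from the mean of the 3 CBX8 KO libraries (y axis, log2 units). For every pair the red re-expression points lie below the dark KO points, by -0.16 for HIF1A/EPAS1 and by -1.08 for CA9/CA12 on average.

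Neighbouring genes of the pathway were given for comparison, in lists also chosen with earlier results of these data known. Of 21 HIF targets in glucose uptake and glycolysis, 14 were lower and 1 higher, with a median log2 fold change of -0.21, beside 6.63% lower and 6.23% higher over all tested genes. HK2, the first enzyme of glycolysis, fell by 0.59 on the log2 scale, the aldolase ALDOA fell by 0.55, PDK1, which holds pyruvate back from mitochondria, fell by 0.46, and the lactate dehydrogenase LDHA fell by 0.45 (edgeR adjusted p between 8.6e-09 and 1.0e-05). The single member called higher was the enolase ENO2 (0.24, edgeR adjusted p = 0.030), which was not called without CBX8 KO replicate 1 or 2 or without re-expression replicate 2 or 3 (adjusted p up to 0.14). It was named after its value was seen. Of 20 other parts of the HIF machinery, 18 were tested, 4 were lower and 1 was higher, with a median of -0.00016, so that 27.8% were called in either direction where 12.9% of all tested genes were. Those lower were CITED2, a HIF target that competes with HIF for its co-activators (-0.35, edgeR adjusted p = 2.9e-05), CUL2, the scaffold of the VHL ligase (-0.23, edgeR adjusted p = 0.0094), ARNT2, an alternative partner of the alpha subunits (-0.20, edgeR adjusted p = 0.030) and RACK1, a scaffold protein (-0.16, edgeR adjusted p = 0.036). The co-activator CREBBP was higher (0.19, edgeR adjusted p = 0.020). Without CBX8 KO replicate 2, or without re-expression replicate 2, CITED2 alone of these 5 passed.

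**Figure D5:**
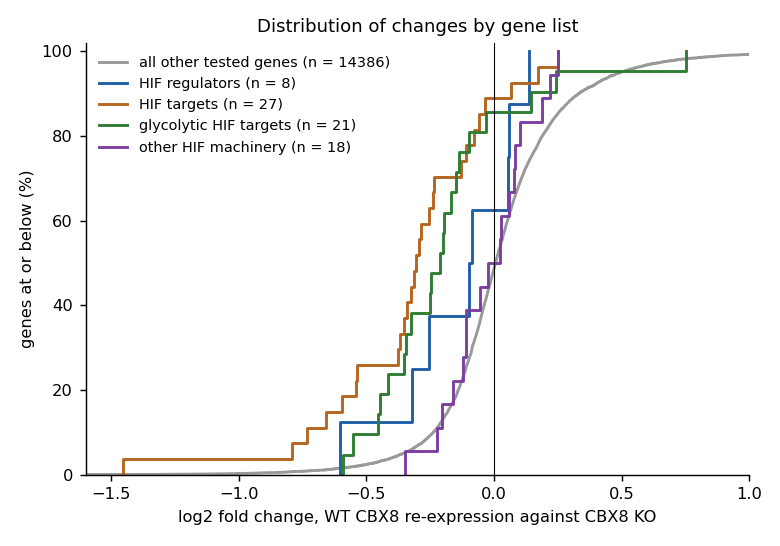
Share of genes (y axis, %) at or below each log2 fold change (x axis, WT CBX8 re-expression against CBX8 KO) for HIF regulators, HIF targets, glycolytic HIF targets, other HIF machinery and all other tested genes. The curves of the targets and of the glycolytic targets lie to the left of the grey curve over most of their range, with medians of -0.30 and -0.21, and that of the other machinery has a median of -0.00016.

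The member changes were small next to CBX8 itself. The coefficient of variation between libraries of a condition had a median of 6.33% over the members in CBX8 KO and 4.62% upon re-expression. Relative to the mean of the KO libraries, the median member stood at -0.02, 0.04 and -0.03 log2 units in CBX8 KO replicates 1 to 3 and at -0.28, -0.29 and -0.25 in re-expression replicates 1 to 3. Of the 21 members called lower, 13 had their highest KO level in KO replicate 2 and 12 had their lowest in KO replicate 3. The same was not counted over all tested genes. Of the 23 calls, 16, all lower, held in each of the 15 alternative fits: HIF1A, EGLN1, EGLN3, KDM3A, CA9, ADM, NDRG1, BNIP3, BNIP3L, P4HA1, PLOD2, LOX, AK4, GBE1, STC1 and DDIT4. The other 7 were lost in some fits. With DESeq2, CA12 (adjusted p = 0.12), BHLHE40 (0.070), P4HA2 (0.096), MXI1 (0.0998) and FAM162A (0.15) were not called. With library size alone, CA12 (edgeR adjusted p = 0.081), BHLHE40 (0.077), ANKZF1 (0.051), MXI1 (0.053) and FAM162A (0.081) were not called. The remaining losses, apart from those under the replicate block, came from leaving out 1 library. CA12 was not called without KO replicate 2 or 3 or re-expression replicate 1 or 2 (adjusted p up to 0.10), and BHLHE40 without KO replicate 2 or 3 or re-expression replicate 1 or 3 (up to 0.11). P4HA2 was not called without KO replicate 1 or 3 or re-expression replicate 1 or 2 (up to 0.17), and STC2 without KO replicate 1 or 2 or re-expression replicate 2 or 3 (up to 0.11). ANKZF1 was not called without KO replicate 2 or re-expression replicate 2 or 3 (up to 0.075), MXI1 without KO replicate 1 or 2 or re-expression replicate 2 or 3 (up to 0.093), and FAM162A only kept its call without KO replicate 3 (0.24 without KO replicate 2).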

How the data were processed

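RNA-seq of 6 T98G libraries was analysed, 3 CBX8 KO and 3 WT CBX8 re-expression, grouped by their titles. The deposited values are raw counts for each gene symbol, which the authors did not normalize. Per the methods and the submitters' processing notes, 100 bp paired-end reads of poly(A) RNA were trimmed with Trimmomatic and aligned to hg38 with HISAT2. The counting program, annotation, strand setting and versions are not given in the sources used here, so how reads of overlapping genes or close copies were assigned is unknown. Precision from depth covers counting error only.

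The tests were run in R 4.3.3 with edgeR 4.0.16. After filterByExpr and TMM scaling, the conditions were compared by glmQLFit and glmQLFTest with condition as the only term. The study names EdgeR at FDR < 0.05 but not its test, filter or scaling. It reports fewer repressed genes than the 959 called lower here, so its fit was not reproduced. CPM values were computed with TMM factors. Each SE is the size of the log2 fold change over the root of its F statistic, and 95% intervals use the fit's degrees of freedom. The fit was tested on simulated counts with known changes. It recovered 95% of the genes simulated at an absolute log2 fold change of 1 and 76% of those at 0.5. Smaller changes were not simulated, and 13 of the members called lower fell by less than 0.5. The alternatives were 3 scalings, 2 filters, DESeq2 1.42.0, limma 3.58.1 voom, legacy set to FALSE in glmQLFit, a replicate block, and fits without 1 library. The members and lists were chosen with earlier results of these data known. Named were CBX8, all 36 members, and, of each comparison list, the 4 called genes with the largest absolute change. ENO2 and RACK1 were added because their counts of calls were 5 or fewer. Promoter windows came from RefSeq (GRCh38.p14), and lengths and overlaps from GENCODE 44, on the same build as the reads. All 36 member symbols matched GENCODE.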

Additional observations from a re-analysis of the deposited data

How the results depend on the processing

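The number of members called lower was 21 and stayed between 16 and 21 over the 15 alternatives (16 to 19 with 1 library left out), and the 3 calls among regulators stayed between 3 and 4. The 2 members called higher, both targets, became 1 with DESeq2 and ranged from 0 to 1 with 1 library left out, for the members and for the targets alike. Both were lost without CBX8 KO replicate 1, and likewise without WT CBX8 re-expression replicate 2. For the glycolytic targets, the 1 called higher became 2 with library size only, 0 without a filter and 0 with DESeq2, and ranged from 0 to 1 with 1 library left out. For the other HIF machinery, the 1 called higher became 2 with library size only and 0 with DESeq2, and ranged from 0 to 1 with 1 library left out; the 4 called lower became 1 with library size only and 2 with the replicate block, and ranged from 1 to 3 with 1 library left out. Over all tested genes, 901 higher and 959 lower became 1400 and 592 with library size only and 501 and 676 with DESeq2, and 593 and 635 without WT CBX8 re-expression replicate 2. The cause was not tested.

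Over the 45 genes named besides CBX8, both the call and the direction were the same in 600 of 675 fits. The call was lost in 67 fits and gained in 1, and the direction was reversed in 7. None of the reversals concerned a called gene. With 1 library left out, the log2 fold change ranged from -0.054 to 0.15 for EGLN2, from -0.17 to 0.0080 for ANKRD37, from -0.14 to 0.049 for INSIG2 and from -0.22 to 0.22 for PPFIA4, and PPFIA4 was 0.0188 with library size only. The reversed values were those of EGLN2 without CBX8 KO replicate 2, ANKRD37 without WT CBX8 re-expression replicate 1, and INSIG2 and PPFIA4 without replicate 2 of either condition. CBX8 kept its call throughout, with a log2 fold change between 8.15 and 8.27.

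Under the replicate block, 19 members were lower and 2 higher, and CA12 (edgeR adjusted p = 0.063), FAM162A (0.058), ARNT2 (0.063) and RACK1 (0.096) lost their calls. Deviations from the condition means correlated at -0.119, -0.0407 and -0.02 between libraries of the same number (13588 genes), so no pairing was assumed. Low counts limited CA9 and PPFIA4, which had at most 40 counts per library.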
